A study of Mus musculus with 12 samples.

Results

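Kruppel-like factors are zinc-finger transcription factors, and 10 genes of this family (Klf2, Klf3, Klf4, Klf5, Klf6, Klf7, Klf9, Klf10, Klf13 and Klf15) were followed in whole mouse pancreas 4 h after the first injection of cerulein or saline. They were taken by symbol out of 49585 genes counted per library, and all 10 were among the 14329 genes that passed the filter on low counts. The set was chosen with their cerulein values already known, from genes that were higher after cerulein, with Klf6 the foremost, and Klf15, which was lower. Their levels with cerulein and with saline are therefore given as a description, without a test. Only the comparisons between genotypes were tested for these 10 genes.

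RNA was sequenced from 12 libraries, 1 for each animal, in 4 groups of 3. The groups were Atf3-/- by label with cerulein (libraries C2, C3 and L4), Atf3-/- by label with saline (S1, K4 and Q1), C57Bl6 wild type with cerulein (O1, O3 and N3) and C57Bl6 wild type with saline (W1, K5 and R3). The Atf3-/- line is congenic on C57Bl6, all mice were 2 to 4 months old, and all received 4 injections over 4 h, of saline or of 50 ug/kg cerulein. Cerulein is an analogue of cholecystokinin that, at high dose, overstimulates acinar cells and causes acute pancreatitis in rodents. The labels give no sex, litter, day or batch, so p-values measure the spread between these animals, with any such difference included.

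Members of the family bind GC-rich and CACCC-type DNA through zinc fingers at the end of the protein, and activate or repress transcription according to the partners that the rest of the protein recruits. Several are early response genes that follow injury, growth factors or stress. Others follow hormones and nutrients: Klf15 and Klf9 are induced by glucocorticoids in liver and muscle, where Klf15 drives amino acid breakdown and glucose production. In mouse pancreas Klf4 and Klf5 have been tied to the change of acinar cells towards a duct-like state.

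Klf6 and Klf15 moved furthest, in opposite directions, so the genomic sequence just before their starts is shown. Klf6 (ENSMUSG00000000078) lies on GRCm38 chromosome 13 from 5861482 to 5870394 on the plus strand. Klf15 (ENSMUSG00000030087) lies on chromosome 6 from 90462576 to 90475238, also on the plus strand. The 250 bases before each RefSeq start on GRCm38.p6 are written 5′ to 3′ on the plus strand, with every CACGTG (the E-box read by basic helix-loop-helix factors, the same on both strands) in capitals. The Klf6 window is chr13:5861239-5861488 and the Klf15 window is chr6:90462326-90462575. Positions count back from the RefSeq start, the base after the window, which for Klf6 lies a few bases inside the GENCODE gene.
Klf6: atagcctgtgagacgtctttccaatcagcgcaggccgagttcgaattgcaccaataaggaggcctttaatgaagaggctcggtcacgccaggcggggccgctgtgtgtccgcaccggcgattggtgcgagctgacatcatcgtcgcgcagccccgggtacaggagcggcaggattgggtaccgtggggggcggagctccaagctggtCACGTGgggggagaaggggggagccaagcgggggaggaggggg
Klf15: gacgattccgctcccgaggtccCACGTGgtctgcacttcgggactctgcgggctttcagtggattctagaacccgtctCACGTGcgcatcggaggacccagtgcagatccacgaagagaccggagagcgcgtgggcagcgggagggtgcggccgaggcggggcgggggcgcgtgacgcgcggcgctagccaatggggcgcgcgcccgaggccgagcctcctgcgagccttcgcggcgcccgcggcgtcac

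The Klf6 window held 1 CACGTG, at position -43 from the RefSeq start, and the Klf15 window held 2, at -228 and -172. A CACGTG stood in 6.02% of 32851 windows of this length and 2 or more stood in 0.429%. The Klf15 window was 72.0% G or C and the Klf6 window 64.8%, against a median of 52.4% over all windows. Windows were found for 8 of the 10 genes, all but Klf5 and Klf10, and Klf4 was the other one with a CACGTG, at -182. Neither TGACGTCA (the cAMP response element, in 1.55% of windows) nor the CArG box bound by Srf (1.47%) was found in any of the 8. Both are rare, so their absence from 8 windows says little. The shorter TGACG, in 17.8% of windows, stood before Klf2, Klf4, Klf9, Klf13 and Klf15. The AP-1 site TGANTCA (6.75%) stood before Klf9 alone, at -89. Klf2 held the only MEF2 box of the 8, at -118, a motif found in 2.92% of windows. These matches describe letters, and binding was not measured.

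Library totals ran from 18292997 to 32158629 counts. Atf3, the gene the congenic line is named for, did not check the genotype labels: it stood at 1375, 20.7 and 1636 CPM (counts per 1e+06 counts of the TMM-scaled library) in C2, C3 and L4, against 23.1, 7.44 and 13.5 CPM in S1, K4 and Q1. In wild type it stood at 775, 599 and 394 CPM with cerulein, against 3.23, 1.13 and 5.28 CPM with saline. The line is therefore called the labelled knockout. Library C3, labelled cerulein, lay among the saline libraries: on the first principal component, 56.3% of the variance, it was at -55.9, where the 6 saline libraries ran from -58.8 to -46.4 and the other 5 cerulein libraries from 61.9 to 86.1. It is shown apart, and results of the labelled knockout with cerulein are given with and without it. The pancreas label was borne out by acinar enzymes: 10 acinar markers summed to 255020 to 526120 CPM in every library.

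Klf6, a zinc-finger factor induced by tissue injury that can raise the cell cycle inhibitor p21, was the most abundant of the 10 after cerulein. In wild type it stood at 789, 705 and 579 CPM with cerulein (O1, O3, N3), against 38.7, 36.0 and 46.2 CPM with saline (W1, K5, R3). Labelled knockouts had 591 and 481 CPM with cerulein in C2 and L4 and 35.4 CPM in C3, against 36.4, 41.6 and 56.3 CPM with saline (S1, K4, Q1). Every cerulein library other than C3 lay far above all 6 saline libraries, and C3 lay just below them. The means were 691 ± 106 CPM with cerulein and 40.3 ± 5.27 CPM with saline in wild type (SD, n = 3 each). Without C3, the log2 fold change of cerulein over saline was 3.58 ± 0.23 in the labelled knockout (SE, 2 libraries with cerulein) and 4.10 ± 0.23, or 17.1-fold, in wild type. With C3 the log2 value in the labelled knockout was 3.04 ± 0.73.

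Klf15 ran the other way. Its level in wild type was 5.27, 3.82 and 3.89 CPM with cerulein, against 79.7, 126 and 91.1 CPM with saline. Klf15 in labelled knockouts was at 11.3 and 7.499 CPM with cerulein in C2 and L4 and at 84.4 CPM in C3, against 76.9, 87.9 and 131 CPM with saline. No cerulein library other than C3 came near the saline libraries, and C3 lay within their range. These levels rest on 79 to 143 counts in the 3 wild-type cerulein libraries, against 1233 to 2459 in the 3 wild-type saline libraries. Without C3, Klf15 was 10.5-fold lower with cerulein in the labelled knockout (log2 -3.39 ± 0.33) and 22.8-fold lower in wild type (log2 -4.51 ± 0.30). With C3 the log2 value in the labelled knockout was -1.52 ± 0.72. The ratio of Klf6 to Klf15 CPM was 149 to 184 in wild-type cerulein libraries, against 0.285 to 0.507 in wild-type saline libraries. It was 52.4 in C2, 64.2 in L4 and 0.419 in C3, against 0.431 to 0.474 in the 3 saline libraries of the labelled knockout.

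**Figure D1:**
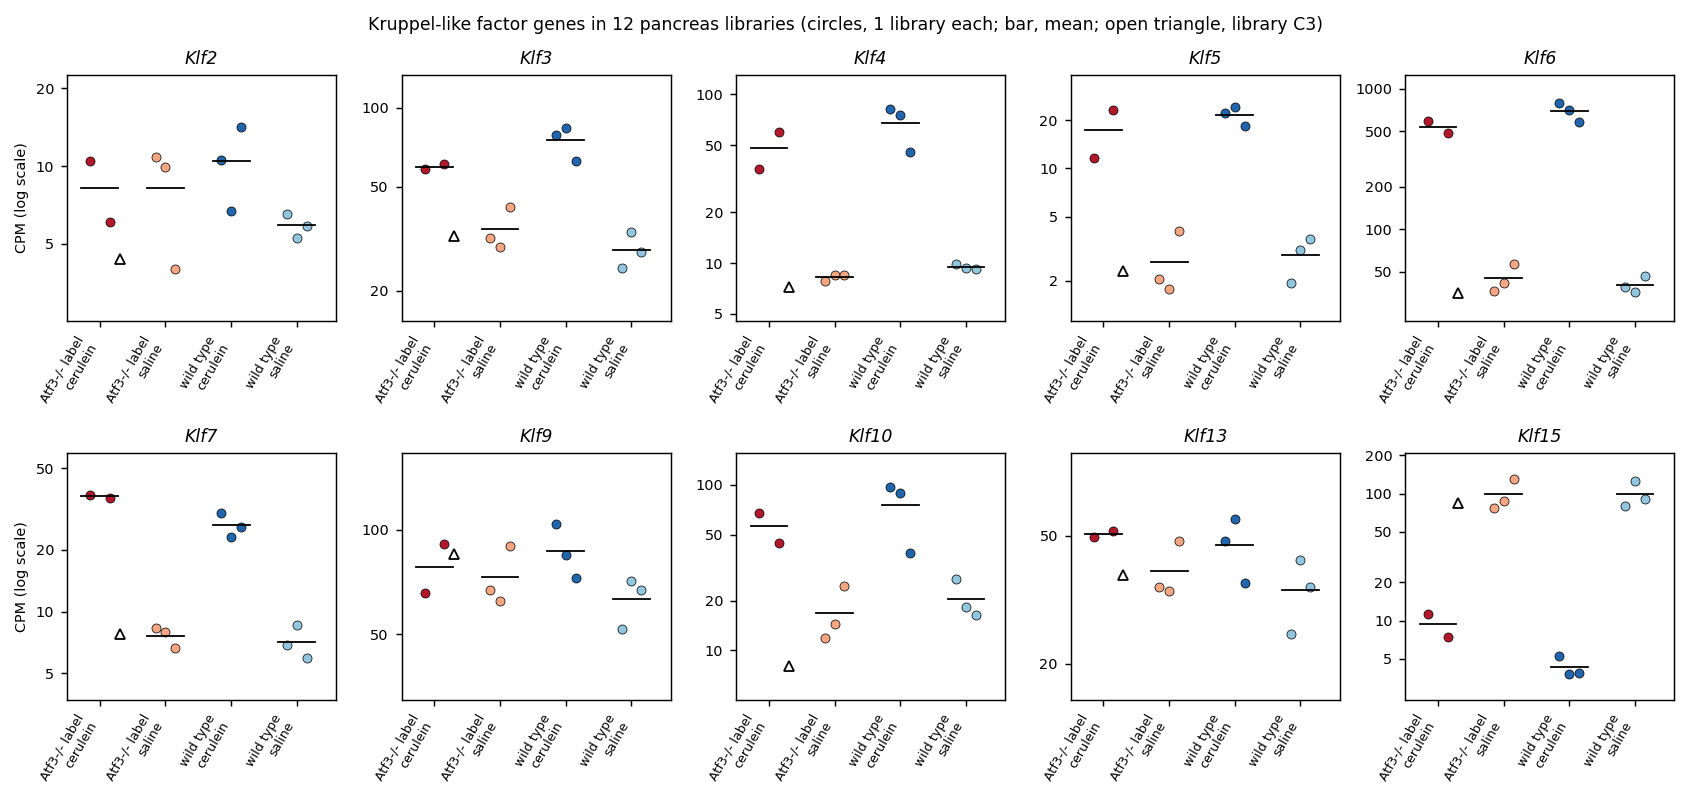
Levels of the 10 genes in CPM on log axes that differ between panels, 1 circle for each library, grouped by genotype label and treatment, with a bar at the mean and library C3 as an open triangle left out of the mean. Klf6 lies at 481 to 789 CPM in the 5 cerulein libraries other than C3, and Klf15 at 3.82 to 11.3 CPM in the same libraries.

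Klf4 and Klf5, factors of epithelial growth and differentiation, were also several times higher with cerulein. Klf4 stood at 81.8, 75.3 and 45.8 CPM with cerulein in wild type, against 9.90, 9.35 and 9.26 CPM with saline. Labelled knockouts had Klf4 at 35.8 CPM in C2, 59.9 CPM in L4 and 7.22 CPM in C3, against 7.87, 8.46 and 8.52 CPM with saline. The saline libraries were tightly grouped and the cerulein libraries spread widely, with N3 lowest in wild type. Klf5 stood at 22.2, 24.1 and 18.3 CPM with cerulein in wild type, against 1.94, 3.08 and 3.62 CPM with saline. Labelled knockouts had Klf5 at 11.6 CPM in C2, 23.0 CPM in L4 and 2.30 CPM in C3, against 2.05, 1.78 and 4.05 CPM with saline. Klf5 had 30 to 92 counts in each saline library, and its cerulein libraries other than C3 did not overlap them. Without C3, the log2 fold changes of Klf4 were 2.53 ± 0.26 in the labelled knockout and 2.83 ± 0.25 in wild type. Those of Klf5 were 2.74 ± 0.39 in the labelled knockout and 2.88 ± 0.37 in wild type.

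Klf7, Klf10 and Klf3 were higher by smaller amounts. Klf7, best known from developing neurons, stood at 30.1, 23.1 and 25.9 CPM with cerulein in wild type, against 6.86, 8.58 and 5.95 CPM with saline. Klf7 in labelled knockouts was at 37.2 and 35.9 CPM in C2 and L4 and 7.74 CPM in C3, against 8.29, 7.97 and 6.67 CPM with saline. C2 and L4 exceeded all 3 wild-type cerulein libraries. Klf10, an early target of TGF-beta signalling, stood at 97.5, 89.3 and 38.6 CPM with cerulein in wild type, against 26.9, 18.4 and 16.3 CPM with saline. Klf10 in labelled knockouts was at 67.9 and 44.3 CPM in C2 and L4 and 8.07 CPM in C3, against 11.9, 14.4 and 24.4 CPM with saline. Within wild type, N3 was less than 1.5 times above the highest saline library for Klf10, the narrowest gap among the 3 genes there. Klf3, a repressor that recruits CtBP proteins, stood at 78.9, 83.8 and 62.7 CPM with cerulein in wild type, against 24.4, 33.5 and 28.04 CPM with saline. Klf3 in labelled knockouts was at 58.2 and 61.0 CPM in C2 and L4 and 32.5 CPM in C3, against 31.9, 29.4 and 41.9 CPM with saline. Without C3 the log2 fold changes in the labelled knockout were 2.25 ± 0.18 for Klf7, 1.73 ± 0.43 for Klf10 and 0.79 ± 0.20 for Klf3. In wild type they were 1.89 ± 0.17 for Klf7, 1.87 ± 0.40 for Klf10 and 1.39 ± 0.18 for Klf3.

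Klf2, Klf9 and Klf13 had the smallest log2 fold changes of the 10 in both genotypes. Klf2, which holds endothelial cells and T lymphocytes in a resting state, stood at 10.5, 6.68 and 14.2 CPM with cerulein in wild type, against 6.53, 5.24 and 5.87 CPM with saline. Klf2 in labelled knockouts was at 10.4 and 6.07 CPM in C2 and L4 and 4.36 CPM in C3, against 10.8, 9.93 and 3.99 CPM with saline. Its groups overlapped there but not in wild type, and the log2 fold change without C3 was -0.01 ± 0.42 in the labelled knockout and 0.83 ± 0.38 in wild type. Klf9, induced by glucocorticoids and thyroid hormone, ran from 72.6 to 104 CPM with cerulein in wild type, against 51.9 to 71.1 CPM with saline. Klf9 in labelled knockouts was at 65.7, 85.4 and 91.0 CPM in C2, C3 and L4, against 62.4 to 90.0 CPM with saline. Klf13, known for activating the chemokine gene Ccl5 in T lymphocytes, ran from 35.6 to 56.5 CPM with cerulein in wild type, against 24.8 to 42.2 CPM with saline. Klf13 in labelled knockouts was at 49.6, 37.8 and 51.8 CPM in C2, C3 and L4, against 33.6 to 48.2 CPM with saline. For these 3 genes N3 was the highest wild-type cerulein library for Klf2 and the lowest for Klf9 and Klf13.

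In wild type, every cerulein library lay above every saline library for 8 of the 10 genes, below for Klf15, and overlapped for Klf13. Of all genes tested, 27.5% were higher and 24.9% lower in this sense, 52.3% in all, and since the genes were chosen on this contrast the count supports nothing. In the labelled knockout all 10 overlapped with C3 included, where the shares of all genes were 9.41% higher and 6.35% lower, 15.8% in all. Without C3, 7 were higher, Klf15 was lower, and Klf2 and Klf9 overlapped, against 29.3% higher and 23.7% lower, 53.1% in all, among all genes. C3 lay within the range of the 6 saline libraries for 7 of the 10 genes and below it for Klf4 (7.22 CPM, lowest saline library 7.87), Klf6 (35.4, lowest 36.0) and Klf10 (8.07, lowest 11.9). The comparisons in the labelled knockout and in wild type share no libraries. The genes were chosen with values of all 4 groups in view, so the counts in the labelled knockout support nothing either.

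**Figure D2:**
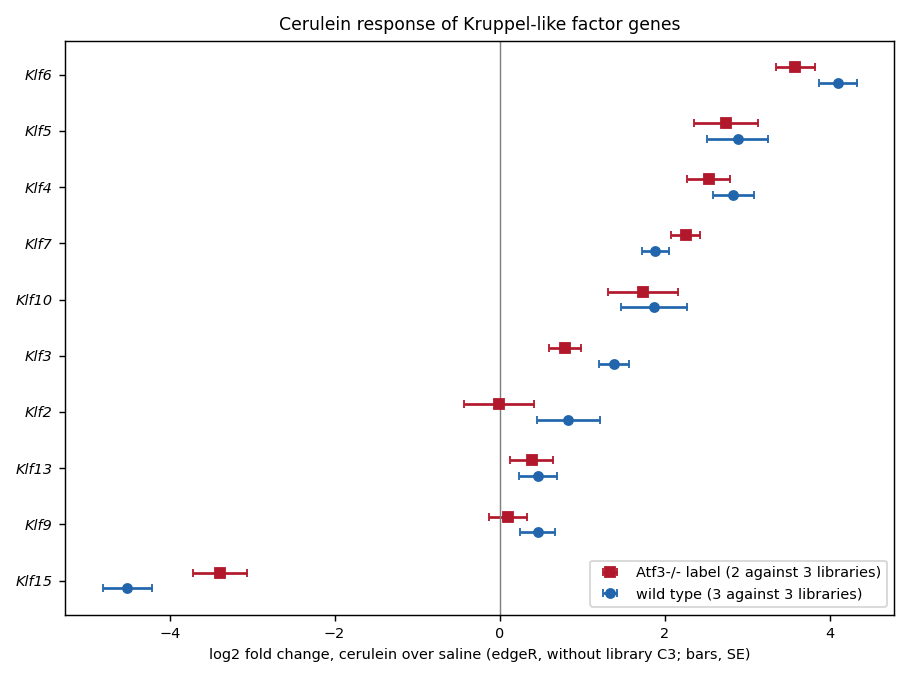
Log2 fold change of cerulein over saline for the 10 genes in the labelled knockout and in wild type, from the edgeR fit without C3, with bars of 1 SE. Klf6 lies at 3.58 in the labelled knockout and 4.10 in wild type, and Klf15 at -3.39 in the labelled knockout and -4.51 in wild type.

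Levels can be compared between genes only per length, and RPKM (CPM per kilobase of exon) was used for that. With cerulein in wild type the order of mean RPKM was Klf6 157 ± 24.1, Klf4 22.2 ± 6.30, Klf9 18.1 ± 3.31, Klf10 18.0 ± 7.64, Klf3 6.68 ± 0.98, Klf13 6.21 ± 1.40, Klf2 5.66 ± 2.02, Klf5 4.14 ± 0.56, Klf7 3.24 ± 0.43 and Klf15 1.55 ± 0.29 (SD, n = 3). Neighbours in that order overlapped between libraries except Klf6 with Klf4, Klf10 with Klf3 and Klf7 with Klf15. With saline in wild type Klf15 led at 35.5 ± 8.70 RPKM, followed by Klf9 at 13.2 ± 2.11 and Klf6 at 9.17 ± 1.20, and Klf5 came last at 0.554 ± 0.165. Among the saline neighbours, Klf10 with Klf13, Klf13 with Klf2 and Klf2 with Klf4 overlapped. In wild type the leading and the last places were thus held by Klf6 and Klf15 with cerulein, and by Klf15 and Klf5 with saline. In the labelled knockout with cerulein Klf6 led and Klf5 came last, with and without C3. Without C3, Klf5 at 3.33 ± 1.54 RPKM overlapped Klf15 at 3.37 ± 0.96 RPKM (SD, n = 2). With C3, Klf15 averaged 12.3 ± 15.5 RPKM (SD, n = 3).

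Summed over the 10 genes, RPKM was 281, 252 and 197 with cerulein in wild type, against 68.1, 88.7 and 75.7 with saline. Klf6 made up 64.1%, 63.8% and 66.8% of that sum with cerulein, against 12.96%, 9.23% and 13.9% with saline. Klf15 made up 0.673%, 0.545% and 0.707% with cerulein, against 42.0%, 51.0% and 43.1% with saline. In the labelled knockout Klf6 made up 65.8% in C2, 59.0% in L4 and 11.2% in C3, against 11.9%, 12.8% and 12.7% with saline. Klf15 made up 1.98% in C2, 1.45% in L4 and 42.0% in C3, against 39.4%, 42.6% and 46.4% with saline. The family transcript pool was led by Klf15 in saline libraries and in C3, and by Klf6 in the other cerulein libraries.

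**Figure D3:**
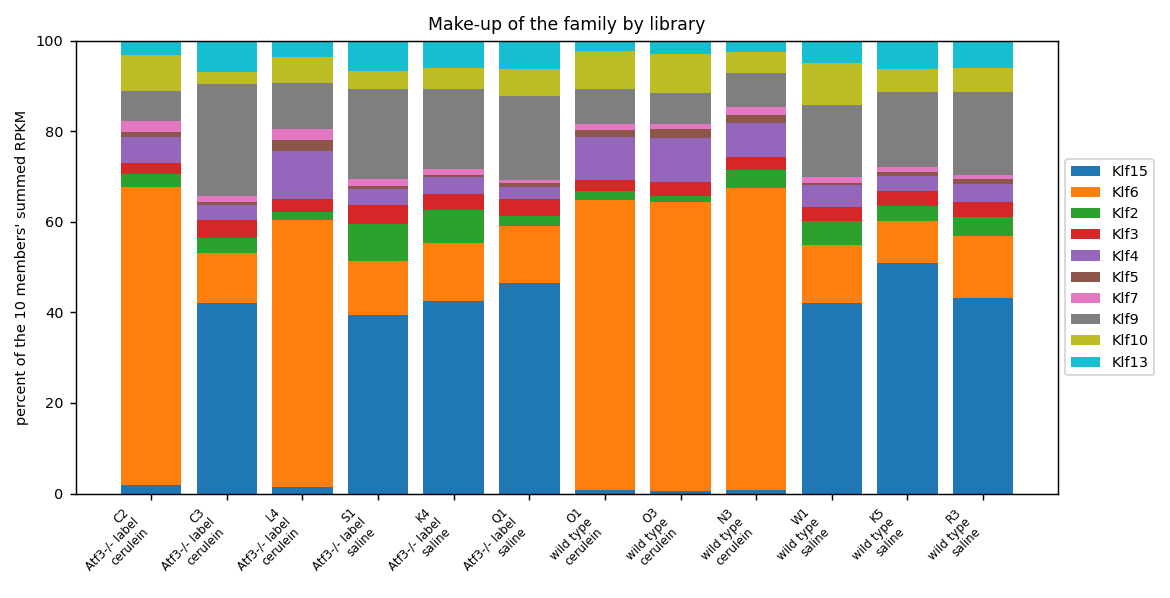
Share of each of the 10 genes in their summed RPKM, 1 bar for each library, in percent from 0 to 100. Apart from C3, Klf6 takes 59.0% to 66.8% in the cerulein libraries, and Klf15 takes 39.4% to 51.0% in the 6 saline libraries and 42.0% in C3.

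Whole tissue was sequenced, so fewer cells of a type and less RNA per cell cannot be told apart. Markers of other cell types were summed over lists of 8 to 10 genes, and no marker was at 0 in every library. Adipocyte markers (10 genes) ran from 40.5 to 502 CPM with cerulein in wild type, against 140 to 231 CPM with saline, and from 51.9 to 75.9 CPM with cerulein in the labelled knockout, against 79.5 to 698 CPM with saline. The highest sums were those of N3 and K4, the other libraries lying at 231 CPM or below. In the other cerulein libraries the sum was low, at 57.8, 51.9 and 75.9 CPM in C2, C3 and L4 and at 42.6 and 40.5 CPM in O1 and O3. Without N3 edgeR called 3 of the 10 lower in wild type, where it called 1315 of 14687 genes lower. Adipocytes also express Klf15, which stood at 3.89 CPM in N3, 87.9 CPM in K4 and 131 CPM in Q1. The adipocyte sums of these libraries were 502, 698 and 79.5 CPM, in that order. The part of adipocytes in the Klf15 levels was not tested. The sum of leucocyte markers (10 genes) was 533 CPM in N3, 411 CPM in K4, and 46.6 to 208 CPM elsewhere. N3 was also the wild-type cerulein library with the highest Klf2 and with the lowest level of 7 of the other genes, and the part of leucocytes or adipocytes in this was not tested. Endothelial markers (10 genes) summed to 81.1 to 102 CPM with cerulein in wild type, against 98.8 to 113 CPM with saline. Of these 10, Egfl7 (log2 -0.74 ± 0.20, edgeR adjusted p = 0.0182) and Kdr (-0.65 ± 0.21, edgeR adjusted p = 0.0407) fell in wild type, where 12.8% of all genes fell. Egfl7 lost its call without W1, R3 or O3, and Kdr when any wild-type library was left out.

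Ductal markers moved with the same treatment. They summed to 389 to 642 CPM with cerulein in wild type, against 211 to 288 CPM with saline, and to 292 CPM in C3 and 451 and 464 CPM in C2 and L4, against 203 to 257 CPM in the labelled knockout with saline. Of 8 ductal markers 5 rose and 1 fell in wild type (edgeR, adjusted p under 0.05 over all genes), where 17.9% of all genes rose and 12.8% fell, 30.7% in all. Without C3 these shares were 21.3% and 16.6%, 37.9% in all, and in the labelled knockout 18.7% rose and 10.5% fell, 29.2% in all. Sox9 (log2 3.50 ± 0.56, adjusted p = 0.00918), Epcam (3.29 ± 0.63, adjusted p = 0.00918) and Krt19 (3.22 ± 0.51, adjusted p = 0.00918) were foremost, Spp1 and Cftr rose less, Muc1 fell, and 3 to 6 rose when 1 library was left out. Of 10 acinar markers none rose and 4 fell, the digestive enzyme genes Amy2a5 and Cpa1 and the acinar transcription factors Bhlha15 (log2 -1.65 ± 0.41, adjusted p = 0.0147) and Rbpjl (-1.59 ± 0.45, adjusted p = 0.0229). The acinar calls depended on single libraries, with 0 to 7 falling when 1 library was left out, Bhlha15 losing its call without K5 or O3 and Rbpjl without W1, K5 or any wild-type cerulein library. The part of these cell types in the Klf levels was not tested. Adipocyte, leucocyte, islet and fibroblast or muscle markers had no member past the threshold in wild type, nor one at an unadjusted p under 0.05, and DESeq2 and limma-voom also called 0.

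The difference between genotypes was tested over all genes with edgeR, and none of the 10 passed in any of the 3 comparisons, where the share of all genes past the threshold was also 0.0%. With saline, all 10 had an adjusted p of 1, none had an unadjusted p under 0.05, and DESeq2 and limma-voom called 0. Klf4 alone did not overlap, at 7.87 to 8.52 CPM in the labelled knockout and 9.26 to 9.90 CPM in wild type (log2 -0.20 ± 0.54). Of all genes, 2.09% were higher and 2.74% lower in every library of that comparison, 4.84% in all. The log2 differences of the 10 ran from -0.28 for Klf10 to 0.49 for Klf2.

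With cerulein, Klf15 was the member with the largest difference between the genotypes: 11.3, 84.4 and 7.499 CPM in the labelled knockout (C2, C3, L4), against 5.27, 3.82 and 3.89 CPM in wild type. All 3 libraries of the labelled knockout lay above wild type, C2 and L4 by small amounts and C3 by a large one. The log2 difference was 2.98 ± 0.77 with C3 (edgeR adjusted p = 0.604, unadjusted 0.00262) and 1.11 ± 0.29 without it (edgeR adjusted p = 0.891, unadjusted 0.00308). DESeq2 called it with C3 (log2 3.03 ± 0.69, adjusted p = 0.0242) and did not without C3 (log2 1.09 ± 0.33, adjusted p = 0.202), and limma-voom gave log2 2.15 ± 0.80 with C3 (adjusted p = 0.716). Klf3 was lower in all 3 libraries of the labelled knockout, at 58.2, 32.5 and 61.0 CPM, against 78.9, 83.8 and 62.7 CPM in wild type (log2 -0.57 ± 0.25, edgeR adjusted p = 0.607; without C3 -0.33 ± 0.20, edgeR adjusted p = 0.984). Klf7 without C3 was higher in both libraries of the labelled knockout (log2 0.47 ± 0.17, edgeR adjusted p = 0.974). Of all genes 5.47% were higher and 4.29% lower in this sense with C3, 9.76% in all, and 9.51% and 6.53% without it, 16.0% in all. The other 7 genes overlapped with and without C3. A p above the threshold does not show that the genotypes were alike.

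The cerulein responses themselves were compared as an interaction, labelled knockout minus wild type. Klf15 again had the largest value, 2.99 ± 1.03 on the log2 scale with C3 (edgeR adjusted p = 0.812) and 1.12 ± 0.39 without it (edgeR adjusted p = 0.999). Klf6 gave -1.06 ± 0.96 with C3 (edgeR adjusted p = 0.826) and -0.52 ± 0.31 without it (edgeR adjusted p = 0.999). Klf3 gave -0.83 ± 0.36 (edgeR adjusted p = 0.812) and -0.60 ± 0.27 (edgeR adjusted p = 0.999). With C3, 2 of the 10 had an unadjusted p under 0.05 by edgeR, Klf15 and Klf3, and without it Klf15 alone. Among all genes this held for 594 of 14329 with C3 and for 508 of 14733 without it. DESeq2 and limma-voom called 0 of the 10.

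Of the 7 other Klf genes, 4 passed the filter, with a median log2 fold change of 0.93 in wild type. In wild type Klf16 rose, at 21.7, 32.1 and 12.3 CPM with cerulein, against 5.24, 7.86 and 6.22 CPM with saline (log2 1.77 ± 0.48, edgeR adjusted p = 0.0198). Klf8, a repressor that binds CtBP, rose too (log2 1.05 ± 0.33, edgeR adjusted p = 0.0363), and Klf12, also a CtBP-binding repressor, fell (-1.43 ± 0.40, edgeR adjusted p = 0.0217) on 6 to 26 counts per library. All 3 calls depended on single libraries. Klf16 did not pass without W1, R3 or O3 (edgeR adjusted p = 0.0666 to 0.0771), nor Klf8 when W1, K5 or R3, or either of O1 and O3, was left out (0.0760 to 0.132), nor Klf12 when W1, K5 or R3, or either of O3 and N3, was (0.0507 to 0.0713). By limma-voom Klf8 did not pass either, with C3 (adjusted p = 0.0569) or without it (adjusted p = 0.0525). Klf11, a TGF-beta-responsive relative of Klf10, did not pass (0.82 ± 0.51, edgeR adjusted p = 0.246). Klf1, Klf14 and Klf17 had at most 8 counts in any library. Of the related Sp genes, which share the zinc fingers, 4 of 9 passed the filter and Sp3 rose in wild type (0.61 ± 0.13, edgeR adjusted p = 0.0107). Sp1 (0.34 ± 0.14), Sp2 (0.29 ± 0.21) and Sp4 (-1.03 ± 0.53) did not pass there, and without C3 Sp1 rose and Sp4 fell.

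Genes around the family were taken from lists chosen by known role, with earlier results of these data in view. Over all genes the median log2 fold change in wild type was 0.05, and edgeR called 17.9% higher and 12.8% lower. Among cofactors through which Klf proteins act, Ctbp2, a corepressor bound by Klf3, Klf8 and Klf12, rose (log2 2.33 ± 0.44, edgeR adjusted p = 0.00918). Sin3b, a scaffold of histone deacetylase complexes, also rose (0.45 ± 0.16, edgeR adjusted p = 0.0472) and lost its call when any library but C3 or L4 was left out (0.0573 to 0.152) and by limma-voom (0.0557). Of 6 ubiquitin ligases known to turn over Klf proteins, Fbxo32 rose (0.90 ± 0.20, edgeR adjusted p = 0.0109), Btrc fell (-1.19 ± 0.24, edgeR adjusted p = 0.00925) and 4 did not pass, with a median of -0.20.

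Upstream regulators were described next. In the MEK5, ERK5 and MEF2 cascade that induces Klf2 and Klf4 in endothelium, Mapk7, which encodes ERK5, rose (log2 1.66 ± 0.38, edgeR adjusted p = 0.012), as did Mef2a (1.29 ± 0.20, edgeR adjusted p = 0.00918). The other 5 of 7 did not pass, and the median was -0.03. These 2 calls were a share near the 30.7% of all genes called in wild type, so they show nothing particular to the cascade. Of 6 genes for Srf and its partners 4 rose and 1 fell, where 17.9% of all genes rose and 12.8% fell, and their median was 0.95. The 1 that fell, the coactivator gene Mrtfb, did not pass without K5 or any wild-type cerulein library. Srf itself rose by 2.54 ± 0.54 (edgeR adjusted p = 0.0104) and its coactivator gene Mrtfa by 1.64 ± 0.32 (edgeR adjusted p = 0.00918). Elk4 (0.99 ± 0.25, edgeR adjusted p = 0.0157) lost its call without W1 or R3, and Elk1 (0.92 ± 0.30, edgeR adjusted p = 0.0373) when any wild-type library was left out (0.0769 to 0.104). Of 13 TGF-beta pathway genes 6 rose and none fell, where 17.9% of all genes rose and 12.8% fell. They were the ligand gene Tgfb1 (1.57 ± 0.47, edgeR adjusted p = 0.0297), the signal transducer Smad2 (1.495 ± 0.23, edgeR adjusted p = 0.00918), its relative Smad3 (1.45 ± 0.48, edgeR adjusted p = 0.042), the feedback repressor Skil (1.39 ± 0.32, edgeR adjusted p = 0.0118), and Tgfbr1 and Smad4. The median of the 13 was 0.85, and 3 to 7 rose when 1 library was left out. Tgfb1 did not pass without O3, N3 or any wild-type saline library, nor Smad3 when any library but C2 or C3 was left out (0.0508 to 0.123) or by limma-voom (0.0637).

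Genes known as targets moved unevenly. Of 10 metabolic genes known from mouse liver and muscle as Klf15 targets 8 passed the filter, with a median of -1.12 in wild type. None rose and 4 fell there, where 17.9% of all genes rose and 12.8% fell. They were Prodh, which breaks down proline (log2 -2.76 ± 0.62, edgeR adjusted p = 0.0113), Bcat2, which starts the breakdown of branched-chain amino acids (-1.81 ± 0.42, edgeR adjusted p = 0.0121), the alanine aminotransferase Gpt (-1.79 ± 0.35, edgeR adjusted p = 0.00921) and Bckdha (-1.35 ± 0.38, edgeR adjusted p = 0.0229). Bckdha did not pass when any wild-type library was left out (edgeR adjusted p = 0.0551 to 0.0671). Without C3 the same 4 genes also fell in the labelled knockout, Prodh by log2 -2.86 ± 0.22, Bcat2 by -1.63 ± 0.25, Gpt by -1.66 ± 0.27 and Bckdha by -1.30 ± 0.23, with edgeR adjusted p from 1.67e-05 for Prodh to 0.00171 for Bckdha. C3 was set apart after its expression was seen, and over all 12 libraries edgeR called none of this list there. Of 8 endothelial genes known as Klf2 or Klf4 targets 0 passed in wild type by edgeR, DESeq2 or limma-voom, and 0 had an unadjusted p under 0.05, with a median of 0.49 and with Thbd at 0.91 ± 0.48 and Eng at 0.32 ± 0.19. A list of 7 cell cycle genes mixed inhibitor genes with cyclin genes, so its median has no direction to read. Of the 6 past the filter 1 rose and 1 fell, with a median of -0.10. That share was near the 30.7% of all genes called in wild type. Cdkn1a, which encodes p21, rose by 4.23 ± 0.89 (edgeR adjusted p = 0.0101). Cdkn1b, which encodes p27, fell (-1.16 ± 0.39, edgeR adjusted p = 0.0459) and did not pass without S1, Q1 or any wild-type library (0.0579 to 0.13), nor by limma-voom (0.0502).

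Glucocorticoid-responsive genes, the class to which Klf9 and Klf15 belong, did not move together. Of 11 in wild type 2 rose, 4 fell and 5 did not pass, where 17.9% of all genes rose and 12.8% fell. The median of the 11 was -0.21, and 1 to 5 fell when 1 library was left out. Dusp1, a phosphatase that shuts off MAP kinases, rose (log2 4.90 ± 0.98, edgeR adjusted p = 0.00925), as did Cebpd (2.73 ± 0.54, edgeR adjusted p = 0.00918). Zbtb16 fell (-3.10 ± 0.64, edgeR adjusted p = 0.00946), and so did Fkbp5 (-3.08 ± 0.72, edgeR adjusted p = 0.0125), which lost its call without O3, along with Sgk1 and Per1.

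In the labelled knockout without C3, several of these genes were called as well, while over all 12 libraries edgeR called none there. Ctbp2 rose by 2.19 ± 0.31 (edgeR adjusted p = 5.83e-04), Srf by 2.75 ± 0.17 (edgeR adjusted p = 4.24e-06), Mapk7 by 1.68 ± 0.26 (edgeR adjusted p = 9.13e-04) and Cdkn1a by 3.31 ± 0.56 (edgeR adjusted p = 0.00183). Cebpd rose by 1.51 ± 0.43 (edgeR adjusted p = 0.0245) and Fkbp5 fell (log2 -2.49 ± 0.43, edgeR adjusted p = 0.00167). Klf12 fell (-1.24 ± 0.42, edgeR adjusted p = 0.0463), while Klf16 (1.09 ± 0.42, edgeR adjusted p = 0.0783) and Klf8 (0.88 ± 0.37, edgeR adjusted p = 0.0989) did not pass. All 4 Sp genes that passed the filter were called, Sp1, Sp2 and Sp3 higher and Sp4 lower (-1.60 ± 0.28, edgeR adjusted p = 0.00164). In that fit 18.7% of all genes were called higher and 10.5% lower, and with C3 edgeR called none of the 4. Fbxo32 (0.03 ± 0.22) and Btrc (-0.16 ± 0.26) did not pass. Without C3 no interaction passed over all genes by edgeR (508 at an unadjusted p under 0.05) or by DESeq2 or limma-voom, so no difference between the genotypes was shown for them. Of 8 islet markers 4 rose in the labelled knockout without C3 by edgeR, where 18.7% of all genes rose, while DESeq2 called 5 and limma-voom 0, and L4 held the highest islet sum, at 11496 CPM, where the other libraries had 462 to 3595 CPM.

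**Figure D4:**
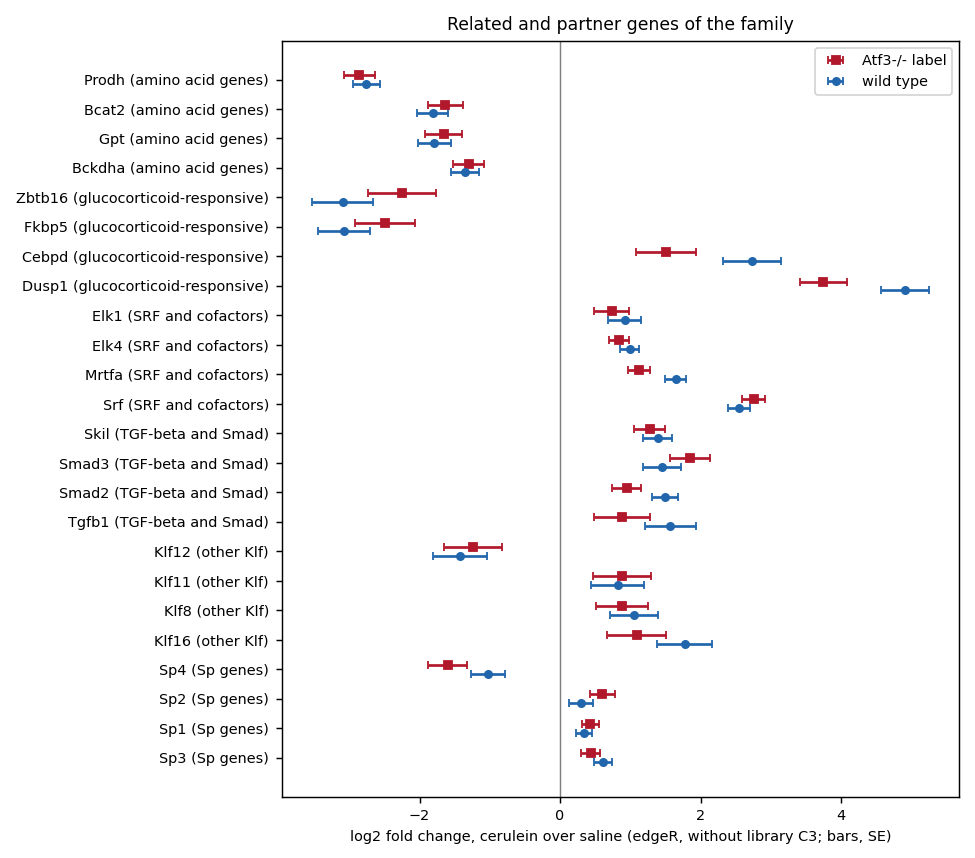
Log2 fold change of cerulein over saline for genes of the regulator and target lists, in the labelled knockout and in wild type, from the edgeR fit without C3, with bars of 1 SE. Apart from Klf and Sp genes, only up to 4 members of each list past the threshold in wild type are drawn, those with the largest change. The 4 Klf15 metabolic targets shown, of 8 tested, lie below 0 in both genotypes, from -1.30 to -2.86. Srf lies at 2.75 in the labelled knockout and 2.54 in wild type.

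Over the 12 libraries, the genes whose log2 CPM profile was nearest to that of Klf6, by root mean square difference after centring among 11934 genes, were Coq8b (0.243), Ifrd1 (0.280), Map2k3 (0.333), Rab11fip3 (0.338) and Akr1b8 (0.339). Coq8b averaged 82.0 ± 17.2 CPM with cerulein in wild type, against 5.07 ± 1.10 CPM with saline (SD, n = 3 each). Ifrd1 averaged 1862 ± 555 CPM with cerulein, against 126 ± 12.3 CPM with saline. Nearest to Klf15 were the long noncoding RNA Gm15889 (0.345), Sephs2 (0.446), Sesn1 (0.447), Gpsm1 (0.483) and Hif3a (0.497). Sephs2, which makes the selenium donor for selenoproteins, averaged 5.21 ± 0.82 CPM with cerulein in wild type, against 113 ± 4.17 CPM with saline. Sesn1, a stress-induced inhibitor of mTORC1 signalling, averaged 7.21 ± 3.45 CPM with cerulein, against 110 ± 39.0 CPM with saline. Gpsm1 overlaps Dnlz on the other strand, which had 3225 counts against 6144 for Gpsm1, and its reads may be mixed with those of Dnlz. Within the family, Klf5 (0.634, rank 111) and Klf4 (0.663, rank 137) were nearest to Klf6, and Klf15 was among the farthest of all genes (3.94, rank 11911). The profiles share libraries and treatment, so the distances describe these 12 libraries and have no test.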

How the data were processed

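RNA of whole pancreas was measured in 12 libraries, 1 for each animal per the series' design, from a stranded total RNA kit per the labels' protocols. The authors deposited raw counts of reads, whole numbers for each Ensembl gene, which carry no normalization. Per the submitters' processing notes HTSeq, DESeq2 and the mm10 build were used, with aligner, annotation release and strand setting not given in the sources used here. Without a known strand setting, reads of overlapping genes may be mixed: Klf3 (14088 counts in all) overlaps 2 gene models with 42 and 160 counts, Klf13 (12061) 2 with 94 and 4, Klf9 (22091) 1 with 13 and Klf7 3 with 0.

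Of 49585 genes, 49326 were matched by identifier to GENCODE M21 (GRCm38), which gave symbols, coordinates and exon lengths. Genes were kept by filterByExpr on the 4 groups, TMM-scaled, and a robust quasi-likelihood model with 1 mean for each group was fitted to all libraries (edgeR 4.0.16, limma 3.58.1, R 4.3.3). All tests were two-sided, p-values were adjusted by Benjamini-Hochberg over every gene in the fit, the threshold was 0.05, and the SE is the log2 fold change over the square root of F. The steps were tested on simulated data. Without C3, 14733 genes were tested. DESeq2 1.42.0 and limma-voom were run as alternatives, with other scalings, other filters and each library left out. CPM uses TMM-scaled totals per 1e+06 counts, RPKM divides it by exon length, and profiles used log2 CPM with a prior count of 2. Python 3.11.15, pandas 2.3.3, NumPy 2.4.6 and matplotlib 3.10.9 made tables and figures.

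The members, gene lists and tests were chosen with earlier results of these data known. Named genes are the 10 members, the Klf and Sp genes past the filter, Atf3, up to 4 members of each list past the threshold with the largest change in wild type (or the 2 most abundant where none passed), and the 5 genes nearest in profile to Klf6 and to Klf15. Klf1, Klf14, Klf17, Mrtfb, Cftr, Muc1, Tgfbr1, Smad4, Sgk1 and Per1 lie outside that rule and were named after their values were seen. In promoters 11 motifs were searched on both strands: the E-box CACGTG; the cAMP response element TGACGTCA and the shorter TGACG inside it; the AP-1 site TGANTCA; the GC box GGGCGG; the CACCC box; the CCAAT box; the TATA box TATAAA; the steroid receptor site AGAACA; the CArG box; and the MEF2 box. The counts of the cofactor list are not reported here.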

Additional observations from a re-analysis of the deposited data

How the results depend on the processing

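No paired analysis was possible because the groups have no replicate code in common. Leaving out 1 library at a time, the log2 fold change of Klf15 with cerulein over saline in the labelled knockout ran from -3.39 (without C3) to -1.04, and without C3 it was -3.44 by DESeq2 and -3.40 by limma-voom. For labelled knockout against wild type with cerulein, DESeq2 called 1 of the 10 genes, Klf15, where edgeR called 0. In wild type Klf6 ran from 3.99 to 4.21 and Klf15 from -4.68 to -4.30 over the 12 leave-outs, and no value among the 10 genes turned its direction past the threshold. Over all genes, edgeR called 2568 higher and 1831 lower for cerulein in wild type, and 1270 and 571 without O3, the lowest counts of the leave-outs. For cerulein in the labelled knockout it called 0 (3256 at an unadjusted p under 0.05), 2756 higher and 1550 lower without C3, and DESeq2 called 1239 and 120 with C3. For labelled knockout against wild type with cerulein DESeq2 called 7 higher and 4 lower with C3, and 4 and 10 without it, where edgeR called 0 (1146 at an unadjusted p under 0.05). Without N3, 3 of the 10 adipocyte markers fell in wild type by edgeR, where 1315 of 14687 genes fell. Alternatives without C3 by DESeq2 and limma-voom were chosen after seeing the data. The labelled knockout with cerulein rests on 2 libraries without C3, and the 10 genes had at least 30 counts in each library.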
